A study of Mus musculus with 45 samples.

Results

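Tfcp2l1, Tbx3, Prdm14 and Nr5a2 encode transcriptional regulators of the naive state of mouse embryonic stem cells (mESC), and the open chromatin regions around them were followed after acute removal of SOX2, OCT4 or NANOG. The regions are the ATACseq peaks whose summit lies within 60 kb of the annotated 5' end of one of the 4 genes (GENCODE, mm10). This rule took 128 of the 184964 peaks of the series, with 36 near Tfcp2l1, 31 near Tbx3, 29 near Prdm14 and 32 near Nr5a2. No measured change entered the choice of a peak, but the 4 genes were chosen with earlier results of these data known. For all 128 peaks the gene in question was also the protein-coding gene with the nearest 5' end.

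Accessibility was measured with ATACseq, in which the Tn5 transposase cuts and tags open DNA, in 31 libraries from 3 degron lines grown in serum-free medium with LIF and inhibitors of MEK and GSK3. In each line the factor named is fused to an FKBP domain by knock-in at its own gene, so that 500 nM dTAG-13 sends the fusion protein to the proteasome. The SOX2-FKBP and NANOG-FKBP lines are labelled as E14 cells (the methods name IB10 mESC for SOX2) and the OCT4-FKBP line in V6.5 cells, so strain background and tagged factor cannot be told apart between OCT4-FKBP and the other lines. SOX2-FKBP cells were sampled untreated (NT, which received DMSO) and after 0.5, 1, 2, 6 and 24 h with 2 libraries each. OCT4-FKBP cells were sampled at NT, 2, 6 and 24 h with 2 libraries each, and NANOG-FKBP cells at the same times with 2 NT libraries and 3 libraries per treated time. Each line derives from selected clones, the methods also name an independent SOX2-FKBP clone without saying whether any library analysed here comes from it, and the loss of the proteins themselves was not analysed here.

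TFCP2L1 is a Grainyhead-family factor induced by LIF and STAT3 that helps to hold cells in the naive state. TBX3 is a T-box factor that supports self-renewal and feeds into Nanog expression. PRDM14 is a PR-domain protein that represses FGF signalling and DNA methylation genes and also acts in primordial germ cells. NR5A2 is an orphan nuclear receptor that binds regulatory DNA of Pou5f1 and can stand in for OCT4 in reprogramming. SOX2 and OCT4 bind DNA next to each other at many enhancers through a composite SOX-POU element, and loss of their binding can let nucleosomes close over a site.

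Most of what follows turns on 6 windows, each the 300 bases around a peak summit on the plus strand of mm10. They are a selection from the 27 peaks called lost at 2 h in at least 1 line, and both peaks with a composite element are among them. Tbx3 +9.5 kb and Nr5a2 -43.4 kb, named for the largest 2 h loss of their gene after OCT4 removal, are not shown. The Tbx3 +9.5 kb window holds none of the letters searched, and the Nr5a2 -43.4 kb window holds a SOX site. Capitals mark exact matches on either strand to a SOX site (CATTGT or CTTTGT, read as ACAATG or ACAAAG on the other strand) or to the composite TTGTNATGC.
Tfcp2l1 +14.9 kb, intron, chr1:118642664-118642963: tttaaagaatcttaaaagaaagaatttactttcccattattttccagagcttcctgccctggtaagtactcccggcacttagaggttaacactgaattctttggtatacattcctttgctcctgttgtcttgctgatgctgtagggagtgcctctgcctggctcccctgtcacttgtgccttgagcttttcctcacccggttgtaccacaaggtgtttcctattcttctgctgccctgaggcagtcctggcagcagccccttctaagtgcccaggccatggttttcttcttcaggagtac
Tfcp2l1 +30.4 kb, intron, chr1:118658209-118658508: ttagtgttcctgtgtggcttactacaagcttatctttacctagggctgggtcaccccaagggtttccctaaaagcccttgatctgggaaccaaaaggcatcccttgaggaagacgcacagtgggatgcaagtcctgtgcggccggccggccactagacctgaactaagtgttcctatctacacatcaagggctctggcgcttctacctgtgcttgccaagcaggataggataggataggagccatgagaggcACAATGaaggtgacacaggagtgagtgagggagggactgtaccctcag
Tbx3 +50.3 kb, intergenic, chr5:119720858-119721157: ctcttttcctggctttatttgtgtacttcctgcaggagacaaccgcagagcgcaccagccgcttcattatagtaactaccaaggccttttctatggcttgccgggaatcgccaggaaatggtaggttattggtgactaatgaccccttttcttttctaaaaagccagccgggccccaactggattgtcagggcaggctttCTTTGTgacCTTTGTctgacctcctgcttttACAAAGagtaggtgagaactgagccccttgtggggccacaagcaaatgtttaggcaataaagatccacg
Prdm14 +32.4 kb, intergenic, chr1:13094607-13094906: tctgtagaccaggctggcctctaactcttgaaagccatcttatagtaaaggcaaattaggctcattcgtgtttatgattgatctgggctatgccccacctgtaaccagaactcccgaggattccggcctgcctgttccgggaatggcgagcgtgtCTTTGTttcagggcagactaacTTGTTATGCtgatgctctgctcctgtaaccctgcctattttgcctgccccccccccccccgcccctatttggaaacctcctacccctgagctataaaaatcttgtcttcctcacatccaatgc
Prdm14 +52.4 kb, intron of the lincRNA Gm29283, chr1:13074638-13074937: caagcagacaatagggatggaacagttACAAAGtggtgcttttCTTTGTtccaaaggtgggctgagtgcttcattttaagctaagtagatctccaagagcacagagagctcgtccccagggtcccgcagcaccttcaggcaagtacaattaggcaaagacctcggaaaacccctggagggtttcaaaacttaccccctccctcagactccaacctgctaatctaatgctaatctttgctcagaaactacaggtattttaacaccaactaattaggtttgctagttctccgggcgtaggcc
Nr5a2 +19.7 kb, coding exon, chr1:136940632-136940931: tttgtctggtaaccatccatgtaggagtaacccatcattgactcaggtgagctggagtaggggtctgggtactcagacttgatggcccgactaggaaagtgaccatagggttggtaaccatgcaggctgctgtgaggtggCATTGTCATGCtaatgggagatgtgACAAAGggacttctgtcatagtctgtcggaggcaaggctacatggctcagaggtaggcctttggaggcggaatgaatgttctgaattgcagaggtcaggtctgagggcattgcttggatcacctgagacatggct
The Prdm14 +32.4 kb window holds a SOX site 5 bp from the summit and the composite 27 bp from it, and in the Nr5a2 +19.7 kb window the composite lies 8 bp before the summit and overlaps a SOX site. The Tfcp2l1 +14.9 kb window holds none of the letters searched.

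Levels are given as normalized counts, which are fragments per 10000000 TMM-scaled counts, and a change is a log2 fold change with its standard error (SE). Library totals over all peaks ran from 5664738 to 10887645 in SOX2-FKBP, from 6378962 to 17575631 in OCT4-FKBP and from 1817191 to 12437876 in NANOG-FKBP. The 3 treated NANOG-FKBP libraries of replicate 2 stood apart, with totals of 1817191 to 3272168 and 13.18 to 17.56% mitochondrial fragments against 1.42 to 6.65% in the other 28 libraries. Among 5 promoters of embryonic stem cell genes, those of Nanog, Zfp42, Esrrb and Dppa5a held a peak within 1 kb and that of Pou5f1 did not, the promoters of the fibroblast genes Col1a2, Thy1 and Twist2 held peaks of 34.3 to 145 normalized counts in NT cells while Col1a1 and Col3a1 held none, and none of 5 genes of other lineages held one. The part of fibroblasts in the results was not tested. In bulk cells, fewer cells with an open site and less opening per cell cannot be told apart.

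In untreated cells, each locus held a few strong peaks among many weak ones. The strongest Tfcp2l1 peak lay 1.3 kb upstream of the 5' end, at chr1:118625386-118626922. It held 464 and 511 normalized counts in the 2 SOX2-FKBP NT libraries, 415 and 473 in OCT4-FKBP and 600 and 531 in NANOG-FKBP. Its promoter peak held 213 ± 0.87 normalized counts in SOX2-FKBP NT cells (SD, n = 2). The strongest Tbx3 peaks were the promoter peak, with 515 and 518 normalized counts in the SOX2-FKBP NT libraries, and an intronic peak at +9.5 kb, chr5:119679780-119681569, with 435 and 403. The strongest Prdm14 peak was intergenic, 42.0 kb downstream of the 5' end and beyond the end of the gene, with 433 and 419. Nr5a2 had no peak at its outermost annotated 5' end, the nearest being an intronic peak at +2.2 kb with 204 and 152, and its strongest peak lay at +7.4 kb, 605 bp from the start of a shorter transcript, with 366 and 391.

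**Figure D1:**
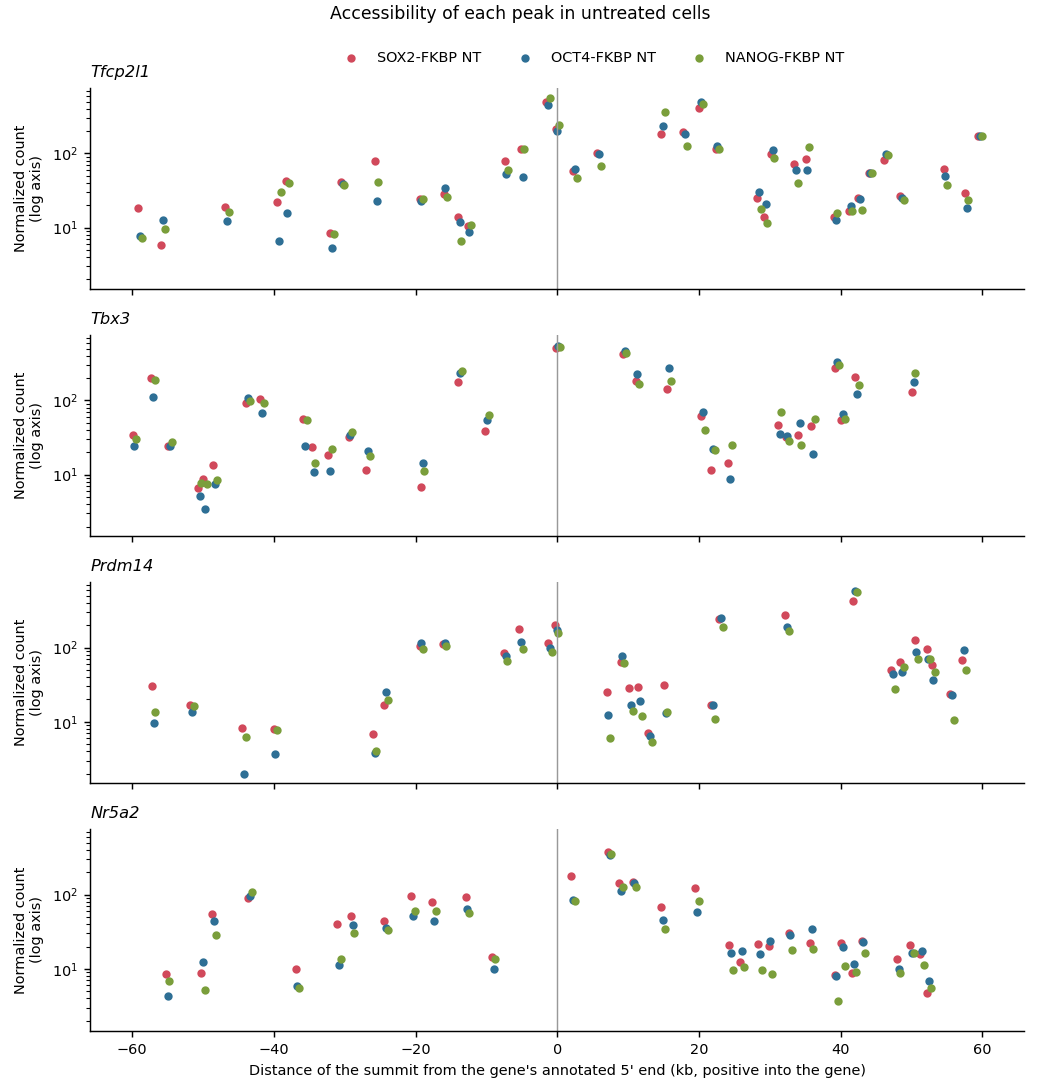
Mean normalized count of every peak in the NT libraries of each line (log axis, 1 point per line and peak) against the distance of its summit from the gene's 5' end in kb, with positive values towards and past the 3' end. Each gene shows a few strong peaks among many below 50 normalized counts.

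Of the 128 peaks, 118 passed the count filter of the SOX2-FKBP fit and 116 that of the fit over all lines, and the 14 peaks that missed at least 1 filter held at most 36.6 normalized counts in any library. Calls below have an adjusted p under 0.05 in edgeR's quasi-likelihood test, adjusted over every tested peak of the series by the method of Benjamini and Hochberg, and all times of a line were compared with the same NT libraries. A count lost by a time holds the peaks called at that time and does not add earlier calls. After SOX2 removal, 4 of the 118 peaks had lost accessibility by 0.5 h against 3.14% of all peaks tested, 7 by 1 h against 5.46%, 13 by 2 h (11%) against 7.28%, 16 by 6 h against 9.28% and 29 by 24 h (24.6%) against 14.1%. Gains were fewer, with 1 peak at 2 h against 1.46% of all peaks and 2 at 24 h against 9.17%. The replicate numbers of this line were taken to pair its libraries from correlations between them, though no label says so. A fit blocked on that number called 12 losses by 0.5 h, 12 by 1 h, 22 by 2 h, 21 by 6 h and 36 by 24 h. Over all 160432 tested peaks it called 8073, 11732, 15005, 18346 and 26510 losses at these times. Its gains were 4 by 2 h and 5 by 24 h, beside 5641 and 21853 of all peaks. In the fit without the block, the 2 h losses fell to 8 when NT replicate 1 was left out. The 24 h gains there fell to 0 without either NT library and to 1 without either 24 h library.

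After OCT4 removal, 20 of the 116 peaks were lost by 2 h (17.2%) against 5.1% of all peaks tested, 24 by 6 h against 7.97% and 40 by 24 h (34.5%) against 12.7%. At 2 h 3 peaks were gained against 1.92% of all peaks, and at 24 h 7 were gained against 10.8%, which became 45 lost and 2 gained when libraries were scaled by their total counts. With the block 29 were lost and 7 gained at 2 h, beside 12326 and 8607 of all 166430 tested peaks. At 24 h it gave 50 lost and 9 gained, beside 26382 and 25135. The 2 h losses numbered 11 without NT replicate 1, 13 without NT replicate 2, 6 without 2 h replicate 1 and 10 without 2 h replicate 2. The 24 h losses numbered 23 without 24 h replicate 1, and the 24 h gains 2 without NT replicate 1 and 3 without NT replicate 2 or either 24 h library.

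After NANOG removal, 1 peak was lost at 2 h against 0.938% of all peaks, 1 at 6 h against 1.08% and 3 at 24 h against 2.25%. With the replicate block 4, 4 and 6 were lost at these times, beside 3301, 3778 and 6097 of all 166430 tested peaks. The block also gave 1 gain at 24 h, beside 1949. The counts that follow are without the block. None was gained at 24 h against 0.288%, where edgeR gave 4 gains and 9 losses at an unadjusted p under 0.05 and DESeq2 also gave 0 gains. The losses at 2 h, 24 h and the 0 gains were 1, 3 and 0 again without the 3 shallow replicate 2 libraries, an alternative chosen after the data were seen. The single 2 h call was lost without NT replicate 1 or any 1 of the 2 h libraries, 4 peaks were called without NT replicate 2, and 2 without 6 h replicate 1, 24 h replicate 1 or 24 h replicate 2. The 24 h count was 1 without NT replicate 1 or 24 h replicate 3.

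The median log2 fold change over the tested peaks of the 4 genes was -0.08 at 2 h and -0.24 at 24 h after SOX2 removal, where all peaks had medians of 0.01 and 0.04. After OCT4 removal it was -0.12 at 2 h and -0.64 at 24 h, where all peaks had medians of 0.02 and -0.01, and after NANOG removal it was -0.05 at 24 h against 0.03. At 2 h, 27 peaks were lost in at least 1 line, of which 6 were lost after both SOX2 and OCT4 removal, 7 were called after SOX2 removal without a call in OCT4-FKBP and 14 after OCT4 removal without a call in SOX2-FKBP. At 24 h the same groups held 23, 6 and 17 of 47 peaks, and the remaining 1 was called in NANOG-FKBP. The shares of such groups over all peaks are not given here, so these counts do not set the 4 loci apart from the series. A peak without a call in a line may also not have been tested in its fit. The 4 peaks within 1 kb of a 5' end were Tfcp2l1 -0.0 kb, Tbx3 +0.1 kb, Prdm14 -0.1 kb and Prdm14 -1.0 kb, with none at Nr5a2. They carried no call at 2 or 6 h in any line, and at 24 h 2 were lost in SOX2-FKBP and 1 was lost and 1 gained in OCT4-FKBP. The share over promoter peaks of the series is not given here.

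**Figure D2:**
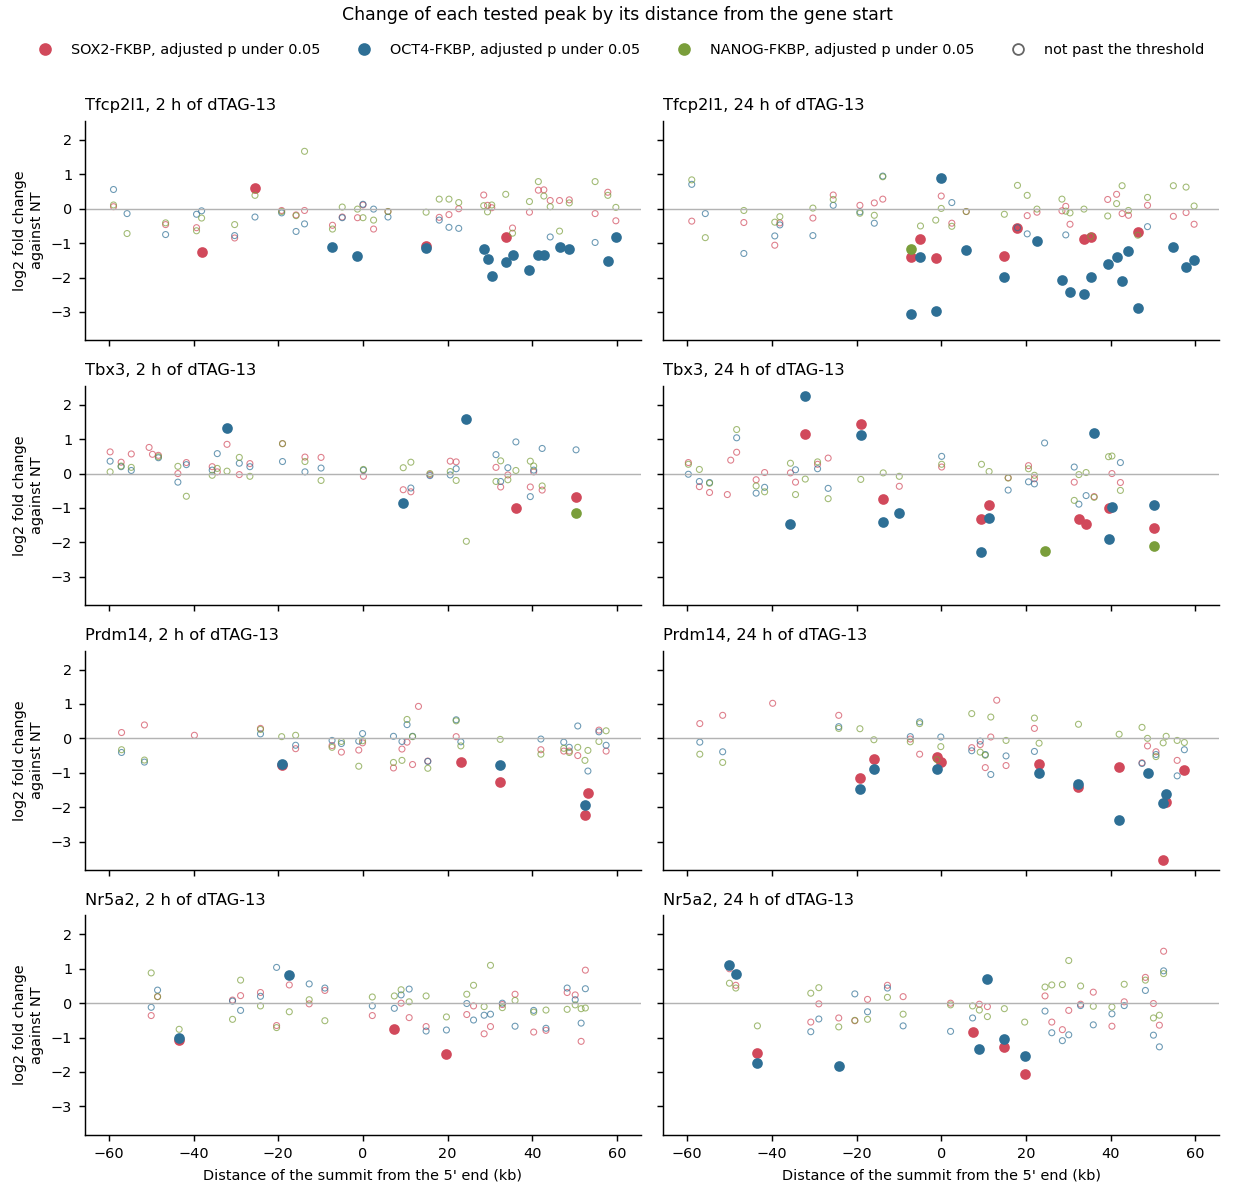
Log2 fold change against NT of every tested peak (1 point per peak and line) by distance of its summit from the 5' end in kb, for each gene at 2 h and 24 h. Filled points have an adjusted p under 0.05, and between +28 and +60 kb of Tfcp2l1 at 2 h 12 of 14 OCT4-FKBP points are filled against 1 in SOX2-FKBP and 0 in NANOG-FKBP.

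The difference between the OCT4-FKBP and SOX2-FKBP changes was tested for each peak as an interaction. It passed the threshold for 2 peaks at 2 h against 1.57% of all peaks in either direction, and for 4 at 24 h against 2.77%. With the replicate block these counts were 14 and 16, and without the 3 shallow NANOG-FKBP libraries they were 4 and 7. Over all 166430 tested peaks the block gave 2131 lower and 5182 higher at 2 h, and 5341 and 6374 at 24 h. The block of this joint fit also coded the NANOG-FKBP replicate numbers, whose part in the rise was not tested. The 2 h count was 6 without OCT4-FKBP NT replicate 2 and 4 without OCT4-FKBP 2 h replicate 2, and the 24 h count was 1 without OCT4-FKBP 24 h replicate 1.

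Tfcp2l1 (chr1:118627945-118685168, plus strand) gave most of the early OCT4 losses. Of its 34 tested peaks 15 had lost accessibility by 2 h of OCT4 removal, with a median log2 fold change of -0.80, and 18 by 24 h, with 1 gained. After SOX2 removal 3 of 33 were lost and 1 gained at 2 h, and 8 were lost at 24 h, which became 5 and 10 lost with the replicate block. After NANOG removal edgeR without the block called none lost at 2 or 6 h, where 2 and 3 had an unadjusted p under 0.05, and 1 at 24 h.

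The peaks in and just past the 3' part of the gene body were lower together after OCT4 removal, a grouping made after the values were seen and given as a description. From +28 to +60 kb lie 14 peaks, 1 in a coding exon, 10 in introns, 1 in an untranslated region and 2 past the 3' end of the gene. Their summed normalized count was 828 and 685 in the OCT4-FKBP NT libraries, 297 and 354 at 2 h, 309 and 309 at 6 h and 183 and 265 at 24 h. All treated OCT4-FKBP libraries lay below both NT libraries, with a 2 h mean at 43.0% and a 24 h mean at 29.7% of NT.

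In SOX2-FKBP the same sum was 750 and 791 in NT, 810 and 668 at 2 h and 608 and 564 at 24 h, so that the 2 h libraries overlapped NT and the 24 h libraries lay below it. In NANOG-FKBP it was 833 and 637 in NT, and every treated library lay between 569 and 929. At 2 h of OCT4 removal 12 of the 14 peaks were called lost and all 14 estimates were below 0, from -1.96 to -0.82 with a median of -1.34. At 2 h of SOX2 removal 1 was called lost and the median was 0.17, and 3 were lost at 24 h.

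The difference between the lines in these 14 peaks had a median of -1.56 at 2 h and the same sign in all of them, but passed the threshold for 1 at 2 h and 2 at 24 h, or for 8 and 5 with the replicate block. The 12 OCT4 calls at 2 h became 4 without NT replicate 1, 10 without NT replicate 2, 4 without 2 h replicate 1 and 5 without 2 h replicate 2, while the median stayed between -1.09 and -1.61. DESeq2 called 5 of them. Upstream of +28 kb 3 of 20 tested peaks were lost at 2 h of OCT4 removal with a median of -0.29, and of 4 tested peaks from +60 to +100 kb, outside the window, none was lost.

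The intronic peak at +30.4 kb, chr1:118657897-118659609, showed the largest 2 h loss of the locus after OCT4 removal. It held 127 and 94.7 normalized counts in the OCT4-FKBP NT libraries, 24.2 and 31.4 at 2 h, 38.1 and 39.5 at 6 h and 15.3 and 26.0 at 24 h. The treated libraries all lay below NT, with a log2 fold change of -1.96 ± 0.28 at 2 h (adjusted p = 3.89e-06). In SOX2-FKBP the libraries held 95.2 and 98.7 in NT, 113 and 85.2 at 2 h and 68.7 and 72.3 at 24 h, and the 2 h change was 0.03 ± 0.21 (adjusted p = 0.971). The OCT4-FKBP change minus the SOX2-FKBP change was -2.06 ± 0.39 at 2 h (adjusted p = 0.00136) and -2.0 ± 0.44 at 24 h (adjusted p = 0.00534, or 0.0767 without OCT4-FKBP 24 h replicate 1). In NANOG-FKBP it held 90.1 and 84.9 in NT and 102, 105 and 79.6 at 2 h.

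The upstream peak at -1.3 kb fell early in OCT4-FKBP and later in SOX2-FKBP. In OCT4-FKBP its 415 and 473 normalized counts in NT became 152 and 191 at 2 h, 108 and 158 at 6 h and 47.3 and 65.1 at 24 h, with log2 fold changes of -1.37 ± 0.27 at 2 h (adjusted p = 0.000438) and -2.98 ± 0.31 at 24 h (adjusted p = 2.48e-09). In SOX2-FKBP it held 464 and 511 in NT, 440 and 376 at 2 h, 368 and 298 at 6 h and 196 and 167 at 24 h. The SOX2-FKBP change was -0.26 ± 0.16 at 2 h (adjusted p = 0.417), -0.55 ± 0.16 at 6 h (adjusted p = 0.0145, not past the threshold without either NT library or 6 h replicate 2) and -1.42 ± 0.17 at 24 h (adjusted p = 1.82e-08). The lines differed by -1.18 ± 0.37 at 2 h (adjusted p = 0.116, and 0.000285 with the replicate block) and by -1.6 ± 0.41 at 24 h (adjusted p = 0.0218, lost without OCT4-FKBP NT replicate 2 or 24 h replicate 1). A smaller peak further upstream at -7.2 kb, named after its values were seen, was the only Tfcp2l1 peak called in NANOG-FKBP, with a change of -1.18 ± 0.31 at 24 h (adjusted p = 0.0264), beside -1.4 ± 0.25 in SOX2-FKBP and -3.06 ± 0.44 in OCT4-FKBP at 24 h.

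The intronic peak at +14.9 kb was lost in both lines and within 0.5 h of SOX2 removal. It held 174 and 194 normalized counts in the SOX2-FKBP NT libraries, 76.4 and 89.2 at 0.5 h, 91.6 and 88.9 at 1 h, 91.6 and 82.4 at 2 h, 86.0 and 65.7 at 6 h and 78.7 and 63.6 at 24 h. The fall was nearly complete at 0.5 h, with a log2 fold change of -1.16 ± 0.20 (adjusted p = 0.000202, or 0.0767 without 0.5 h replicate 1) against -1.36 ± 0.19 at 24 h (adjusted p = 9.93e-07). In OCT4-FKBP it went from 241 and 225 to 89.0 and 121 at 2 h and 41.2 and 76.5 at 24 h, with changes of -1.13 ± 0.25 (adjusted p = 0.0023, or 0.0894 without 2 h replicate 1) and -1.99 ± 0.29 (adjusted p = 1.49e-06). In NANOG-FKBP the 2 NT libraries held 379 and 336 and the 9 treated libraries lay between 261 and 436, with a change of -0.16 ± 0.23 at 24 h (adjusted p = 0.895).

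The Tfcp2l1 promoter did not follow these peaks. In OCT4-FKBP it held 174 and 227 normalized counts in NT, 247 and 197 at 2 h and 425 and 316 at 24 h, a change of 0.88 ± 0.24 at 24 h (adjusted p = 0.00529, not past the threshold without NT replicate 1 or 24 h replicate 1). In SOX2-FKBP it held 212 and 214 in NT and 262 and 288 at 24 h, a change of 0.37 ± 0.16 (adjusted p = 0.0857, and 0.0305 with the replicate block). The intronic peak at +20.3 kb, among the strongest of the locus, changed by -0.20 ± 0.17 in SOX2-FKBP (adjusted p = 0.441) and by -0.73 ± 0.29 in OCT4-FKBP at 24 h (adjusted p = 0.0596, and 0.00211 with the block).

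**Figure D3:**
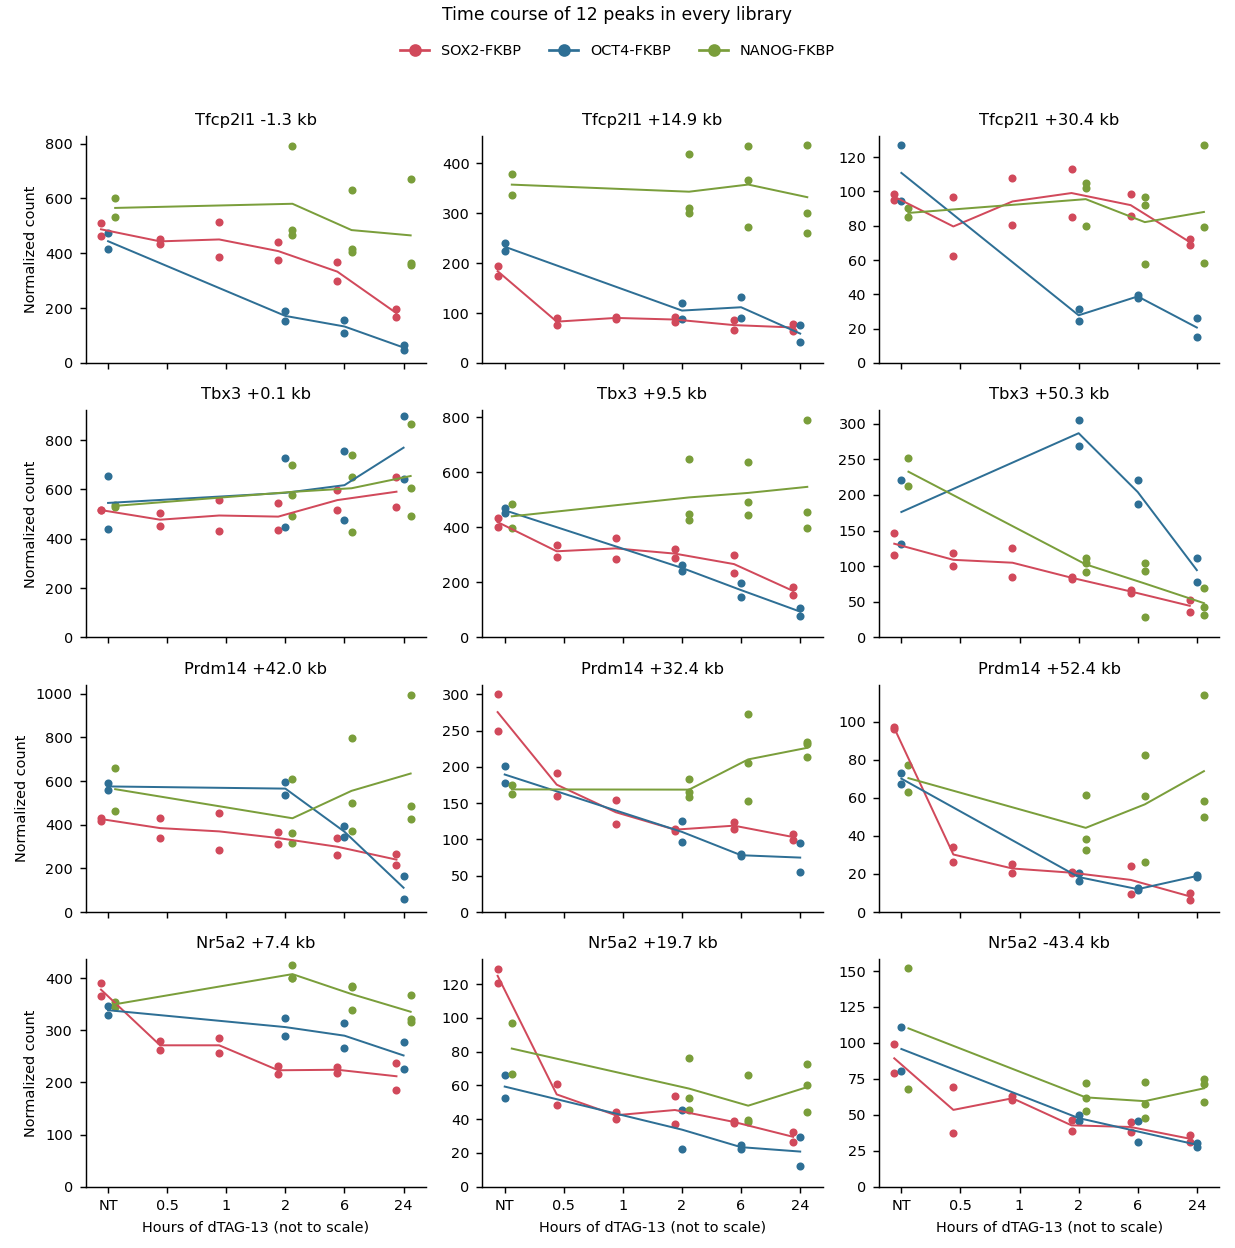
Normalized count of 12 named peaks in every library (points) with the group mean (line) by hours of dTAG-13, on a time axis that is not to scale and with a count axis that starts at 0. Every treated OCT4-FKBP library lies below NT at Tfcp2l1 +30.4 kb, Prdm14 +52.4 kb falls in SOX2-FKBP and OCT4-FKBP, and Tbx3 +50.3 kb falls in NANOG-FKBP from 233 to 48.2 normalized counts by 24 h.

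Tbx3 (chr5:119670669-119684724, plus strand) had more peaks called lost at 24 h than at 2 h in SOX2-FKBP and OCT4-FKBP, as did the other genes. At 2 h 2 of 30 tested peaks were lost after SOX2 removal and 1 of 29 after OCT4 removal, where 2 were gained, and with the replicate block the SOX2 losses numbered 6 and the OCT4 losses 2 with 5 gains. By 24 h 7 were lost and 2 gained after SOX2 removal, and 8 were lost and 3 gained after OCT4 removal. NANOG removal gave 1 lost peak at 2 h and 2 at 24 h, which are 2 of the 3 peaks of all 4 genes called in that line at 24 h.

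The intronic peak at +9.5 kb fell over the whole day in both lines. In OCT4-FKBP it held 472 and 452 normalized counts in NT, 262 and 243 at 2 h, 197 and 147 at 6 h and 108 and 79.7 at 24 h, with changes of -0.87 ± 0.25 at 2 h (adjusted p = 0.0212) and -2.29 ± 0.28 at 24 h (adjusted p = 4.92e-08). The 2 h call was lost when any 1 of the 4 libraries compared was left out. In SOX2-FKBP it held 435 and 403 in NT, 322 and 287 at 2 h and 185 and 153 at 24 h, with changes of -0.47 ± 0.16 at 2 h (adjusted p = 0.0625, and 0.00484 with the block) and -1.31 ± 0.17 at 24 h (adjusted p = 1.18e-07). In NANOG-FKBP the NT libraries held 484 and 396 and the 24 h libraries 397, 790 and 454, where 790 came from the shallow replicate 2.

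The intergenic peak at +50.3 kb, chr5:119720558-119721824, was the 1 peak of the 4 loci called at 2 h in NANOG-FKBP. It held 252 and 213 normalized counts in the NANOG-FKBP NT libraries, 105, 91.6 and 111 at 2 h, 105, 28.7 and 93.4 at 6 h and 70.0, 31.8 and 42.7 at 24 h. Every treated library lay below NT, with changes of -1.15 ± 0.28 at 2 h (adjusted p = 0.0231) and -2.12 ± 0.28 at 24 h (adjusted p = 4.75e-06). The lowest value at 6 h and at 24 h was that of the shallow replicate 2, and the 2 h call was lost with total counts and without NT replicate 1 or any 2 h library.

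After SOX2 removal the +50.3 kb peak went from 147 and 116 in NT to 85.1 and 82.4 at 2 h, 66.1 and 63.0 at 6 h and 53.2 and 35.6 at 24 h, a change of -1.59 ± 0.23 at 24 h (adjusted p = 1.2e-06). The 2 h change of -0.67 ± 0.21 (adjusted p = 0.0313) lost its call in DESeq2, with total counts and without NT replicate 1 or either 2 h library. In OCT4-FKBP it was higher at 2 h, with 305 and 268 against 131 and 221 in NT (0.69 ± 0.26, adjusted p = 0.127, and 0.00247 with the block), and lower at 24 h, with 77.9 and 111 (-0.91 ± 0.29, adjusted p = 0.0198, lost in DESeq2 and without NT replicate 2 or 24 h replicate 1). Of the peaks of the 4 loci tested in every line, this one and Tfcp2l1 -7.2 kb were called lost in all 3 lines at 24 h. Its window carries 3 SOX matches within 100 bp after the summit.

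Among the other strong Tbx3 peaks, the intergenic one at +39.5 kb went from 254 and 302 normalized counts to 132 and 147 after 24 h of SOX2 removal (-0.99 ± 0.17, adjusted p = 1.74e-05) and from 360 and 294 to 102 and 73.2 after 24 h of OCT4 removal (-1.89 ± 0.27, adjusted p = 1.16e-06). The promoter peak held 653 and 438 in OCT4-FKBP NT and 898 and 641 at 24 h, which overlapped (0.50 ± 0.27, adjusted p = 0.193, and 0.0066 with the block). In SOX2-FKBP it changed by 0.19 ± 0.15 (adjusted p = 0.401).

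Upstream of Tbx3, in an intron of the antisense transcript Tbx3os1, the peak at -32.1 kb opened. Its OCT4-FKBP libraries held 11.5 and 10.6 normalized counts in NT, 22.3 and 32.1 at 2 h, 54.2 and 50 at 6 h and 32.1 and 74.9 at 24 h. All treated libraries lay above NT, with changes of 1.32 ± 0.40 at 2 h (adjusted p = 0.0331, lost in DESeq2, with total counts and without either NT library or 2 h replicate 2), 2.23 ± 0.37 at 6 h (adjusted p = 1.73e-05) and 2.26 ± 0.40 at 24 h (adjusted p = 4.15e-05). In SOX2-FKBP it held 21.8 and 14.6 in NT and 56.5 and 28 at 24 h (1.15 ± 0.38, adjusted p = 0.0232, not past the threshold without either NT library, without 24 h replicate 1 or in DESeq2). In NANOG-FKBP the change at 24 h was -0.16 ± 0.43 (adjusted p = 0.955).

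Prdm14 (chr1:13113457-13127163, minus strand) had, without the replicate block, a larger share of peaks called lost after SOX2 removal than the other 3 genes. These were 5 of 27 tested peaks at 2 h (18.5%) and 10 at 24 h (37.0%), and the difference between genes was not tested. With the block 6 were lost at 2 h, when the other genes had 5 of 33 (Tfcp2l1), 6 of 30 (Tbx3) and 5 of 28 (Nr5a2). At 24 h the block gave 13 near Prdm14, beside 10, 8 and 5. After OCT4 removal 3 of 25 were lost at 2 h and 9 at 24 h, and none was gained in either line. No Prdm14 peak was called by edgeR in NANOG-FKBP at any time, with 1 or 2 losses and 0 gains per time at an unadjusted p under 0.05. The 5 peaks lost at 2 h of SOX2 removal were those at -19.2, +23.1, +32.4, +52.4 and +53.1 kb, of which 3 were also lost at 2 h of OCT4 removal. The last 4 of them lie past the 3' end of Prdm14 and the first in an exon of a non-coding transcript of the neighbouring gene Ncoa2.

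The peak at +52.4 kb, chr1:13074657-13074988, showed the deepest loss of all 128 peaks after SOX2 removal. It held 96.2 and 97.0 normalized counts in the SOX2-FKBP NT libraries, 26.5 and 33.9 at 0.5 h, 25.2 and 20.5 at 1 h, 20.5 and 20.8 at 2 h, 9.44 and 24.3 at 6 h and 9.98 and 6.47 at 24 h. The treated libraries all lay far below NT, at 31.2% of it after 0.5 h and 8.51% after 24 h. The log2 fold changes were -1.71 ± 0.27 at 0.5 h (adjusted p = 9.76e-05, or 0.062 without 0.5 h replicate 1), -2.22 ± 0.28 at 2 h (adjusted p = 1.92e-07) and -3.53 ± 0.34 at 24 h (adjusted p = 2.02e-10).

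In OCT4-FKBP the +52.4 kb peak went from 67.3 and 72.8 to 20.3 and 16.4 at 2 h, 11.6 and 12.4 at 6 h and 18.3 and 19.5 at 24 h, a change of -1.95 ± 0.35 at 2 h (adjusted p = 0.000129). The difference between the lines was 0.21 ± 0.52 at 2 h (adjusted p = 0.979). In NANOG-FKBP its 77.4 and 63.2 in NT compared with 38.2, 32.7 and 61.7 at 2 h and 49.7, 114 and 58.2 at 24 h, and the 2 h change of -0.64 ± 0.34 did not pass the threshold (adjusted p = 0.743). The 2 SOX matches of its window lie 107 and 123 bp before the summit.

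The peak at +32.4 kb, chr1:13094154-13096440, which holds the composite element, fell stepwise over the first 2 h. It held 250 and 301 normalized counts in SOX2-FKBP NT, 160 and 191 at 0.5 h, 121 and 154 at 1 h, 115 and 112 at 2 h, 124 and 114 at 6 h and 98.7 and 108 at 24 h. The change was -0.66 ± 0.17 at 0.5 h (adjusted p = 0.0206, lost without NT replicate 2, without 0.5 h replicate 1 and in DESeq2), -1.27 ± 0.17 at 2 h (adjusted p = 1.07e-06) and -1.4 ± 0.18 at 24 h (adjusted p = 8.64e-08). In OCT4-FKBP it went from 178 and 201 to 95.8 and 125 at 2 h (-0.77 ± 0.22, adjusted p = 0.0233, lost without NT replicate 2 or 2 h replicate 1) and to 94.7 and 55.3 at 24 h (-1.33 ± 0.25, adjusted p = 6.92e-05). In NANOG-FKBP it held 163 and 175 in NT and 158, 183 and 165 at 2 h.

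The strongest Prdm14 peak, at +42.0 kb, stood at its NT level at 2 h of OCT4 removal and was called lost in both lines at 24 h. In OCT4-FKBP it held 590 and 561 normalized counts in NT, 594 and 537 at 2 h, 344 and 392 at 6 h and 59.6 and 163 at 24 h, so that the 2 h libraries overlapped NT and the 24 h libraries lay at 19.3% of it. The change was -0.02 ± 0.32 at 2 h (adjusted p = 0.992), -0.64 ± 0.32 at 6 h (adjusted p = 0.223, and 0.0099 with the block) and -2.38 ± 0.36 at 24 h (adjusted p = 2.73e-06). In SOX2-FKBP it held 433 and 419 in NT and 339 and 259 at 6 h (-0.52 ± 0.18, adjusted p = 0.0513, and 0.00129 with the block), and it fell to 265 and 215 at 24 h (-0.83 ± 0.18, adjusted p = 0.000633), and the difference between the lines was -1.59 ± 0.48 (adjusted p = 0.0646, and 0.0003 with the block). The promoter peak changed by -0.7 ± 0.17 at 24 h of SOX2 removal (adjusted p = 0.00204), from 200 and 207 to 131 and 120, and by 0.04 ± 0.20 at 24 h of OCT4 removal (adjusted p = 0.925). The intergenic peak at +23.1 kb fell from 235 and 254 to 141 and 158 at 2 h of SOX2 removal (-0.7 ± 0.16, adjusted p = 0.0023, or 0.0517 without 2 h replicate 1) and to 149 and 141 at 24 h.

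Nr5a2 (chr1:136842571-136960448, minus strand) lost accessibility at a few peaks inside the gene and upstream of it. After SOX2 removal 3 of 28 tested peaks were lost at 2 h and 4 at 24 h, with 5 lost at 2 h under the replicate block. After OCT4 removal 1 was lost and 1 gained at 2 h (3 lost with the block), and 5 were lost and 3 gained at 24 h. No Nr5a2 peak was called in NANOG-FKBP at any time by edgeR without the block, with 1 or 2 losses and 1 gain per time at an unadjusted p under 0.05. Without the block, all 5 Nr5a2 peaks ever called lost after SOX2 removal were first called at or before 2 h. First called at 24 h were 5 of the 10 Prdm14 peaks, 4 of the 8 Tbx3 peaks and 4 of the 10 Tfcp2l1 peaks. These times depend on the threshold and the fit, as the block called 6 Tbx3 peaks lost at 2 h against 2 without it. The shares of first calls over all peaks are not given here, and no difference between genes was tested. The Nr5a2 peaks at -20.4 and +14.9 kb were called at 1 h but not at 2 h (edgeR adjusted p = 0.0982 and 0.0807 at 2 h).

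The peak at +19.7 kb, chr1:136939751-136941089, whose summit lies in a coding exon 199 bp from a transcript start, was lost at every time after SOX2 removal. It held 121 and 129 normalized counts in SOX2-FKBP NT, 61.1 and 48.2 at 0.5 h, 40.1 and 44.5 at 1 h, 53.9 and 36.9 at 2 h, 38.8 and 37.8 at 6 h and 26.6 and 32.4 at 24 h. Every treated library lay below NT, with changes of -1.16 ± 0.22 at 0.5 h (adjusted p = 0.000735), -1.47 ± 0.21 at 2 h (adjusted p = 3.72e-06) and -2.07 ± 0.23 at 24 h (adjusted p = 8.91e-09). In OCT4-FKBP it went from 52.5 and 66.1 to 22.3 and 45.2 at 2 h (-0.78 ± 0.31, adjusted p = 0.144, and 0.0127 with the block), 24.5 and 22.2 at 6 h (-1.35 ± 0.31, adjusted p = 0.00193, or 0.0612 without NT replicate 2) and 12.2 and 29.3 at 24 h. In NANOG-FKBP it held 97.1 and 66.6 in NT and 60.3, 72.7 and 44.0 at 24 h, a change of -0.55 ± 0.30 (adjusted p = 0.525).

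The strongest Nr5a2 peak, at +7.4 kb, fell after SOX2 removal and held its level better after OCT4 removal, though the lines were not shown to differ. It went from 366 and 391 normalized counts to 231 and 216 at 2 h and 186 and 238 at 24 h in SOX2-FKBP, with changes of -0.76 ± 0.15 (adjusted p = 0.000547) and -0.83 ± 0.16 (adjusted p = 8.78e-05). In OCT4-FKBP it held 330 and 348 in NT, 324 and 289 at 2 h and 278 and 226 at 24 h (-0.43 ± 0.20, adjusted p = 0.116, and 0.0255 with the block). The difference was 0.55 ± 0.27 at 2 h (adjusted p = 0.531).

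The intergenic peak at -43.4 kb, chr1:137002981-137004109, fell in both lines at 2 h. In SOX2-FKBP it went from 99.2 and 79.3 to 38.8 and 46.4 at 2 h and 31.0 and 35.6 at 24 h, with a 2 h change of -1.08 ± 0.24 (adjusted p = 0.00146, or 0.106 without NT replicate 1). In OCT4-FKBP it went from 80.5 and 111 to 45.5 and 49.8 at 2 h and 30.5 and 27.7 at 24 h, with a 2 h change of -1.01 ± 0.27 (adjusted p = 0.0124, lost without NT replicate 2 or either 2 h library). In NANOG-FKBP it held 152 and 68.2 in NT and 74.9, 59.0 and 71.2 at 24 h (-0.66 ± 0.26, adjusted p = 0.263).

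The neighbouring peaks at +9.0 kb, in an intron, and at +10.9 kb, in an untranslated region, moved apart at 24 h of OCT4 removal. At +9.0 kb the libraries held 115 and 110 normalized counts in NT, 134 and 131 at 2 h and 42.8 and 45.6 at 24 h, a change of -1.34 ± 0.34 (adjusted p = 0.00256). At +10.9 kb, 19 bp from a transcript start, they held 146 and 145 in NT, 213 and 176 at 2 h and 255 and 221 at 24 h, a change of 0.71 ± 0.24 (adjusted p = 0.0231, lost with total counts, with the groups compared alone, under the stricter count filter and without either NT library or 24 h replicate 1). In SOX2-FKBP these peaks changed by -0.03 ± 0.20 and -0.1 ± 0.18 at 24 h (adjusted p = 0.934 and 0.749). The intergenic peak at -48.5 kb held 51.7 and 37.5 in OCT4-FKBP NT and 65.7 and 94.4 at 24 h (0.85 ± 0.30, adjusted p = 0.0303, lost with total counts, with the groups compared alone and without NT replicate 2 or 24 h replicate 2). The peak at +2.2 kb, the nearest to the 5' end, changed by -0.82 ± 0.35 at 24 h of OCT4 removal (adjusted p = 0.0798, and 0.00371 with the block).

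Summed over all peaks of a gene, the treated times of each line can be put in order. The Tfcp2l1 sum in OCT4-FKBP was 2900 ± 107 normalized counts in NT, 1760 ± 47.8 after 2 h, 1810 ± 12 after 6 h and finally 1510 ± 152 by 24 h (SD over 2 libraries). The 2 h and 6 h values are neighbours that differ by about their spread, whereas NT lay above all treated libraries. In SOX2-FKBP the Tfcp2l1 sum fell from 3030 ± 49.1 in NT to 2240 ± 86.8 at 24 h, and the 4 earlier times, between 2530 and 2750, overlapped one another.

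The Prdm14 sum in SOX2-FKBP was 2520 ± 7.55 in NT, 2060 ± 144 after 0.5 h, 1980 ± 77.1 after 1 h, 1800 ± 91.2 after 2 h, 1800 ± 50.5 after 6 h and 1590 ± 26.9 after 24 h, where 0.5 h overlapped 1 h and 2 h overlapped 6 h. In OCT4-FKBP it fell to 90.0% of NT by 2 h, to 72.5% by 6 h and to 56.5% by 24 h. The Tbx3 sum stayed between 95.7 and 98.9% of NT until 6 h of SOX2 removal and fell to 77.8% at 24 h, and in OCT4-FKBP it was at 99.2% at 2 h and 72.5% at 24 h. The Nr5a2 sum was at 81.0% of NT after 0.5 h of SOX2 removal and between 79.7 and 83.5% from then on, and in OCT4-FKBP at 102% at 2 h and 83.1% at 24 h. In NANOG-FKBP the sums of all 4 genes lay between 86.4 and 106% of NT, with NT and treated libraries overlapping.

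**Figure D4:**
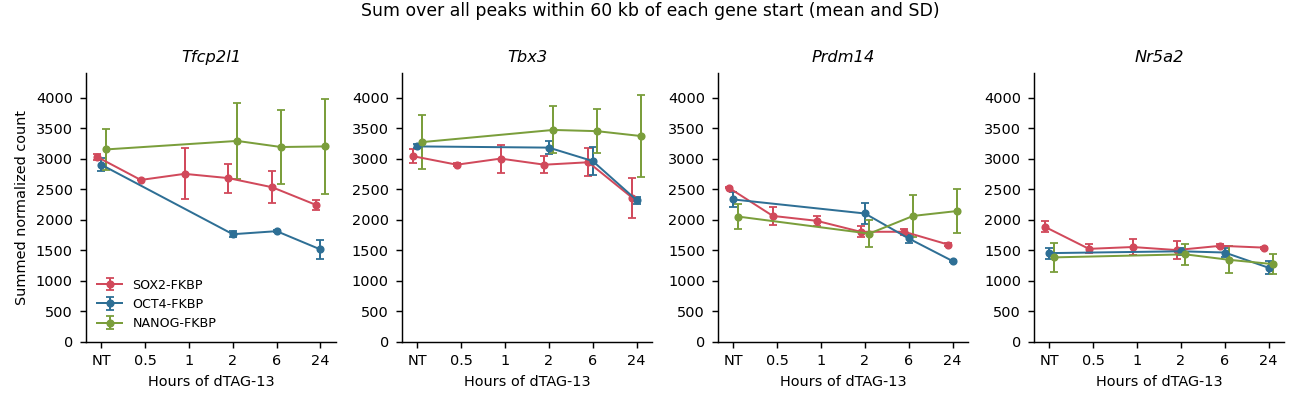
Normalized counts summed over all peaks within 60 kb of each 5' end by hours of dTAG-13 (time axis not to scale, count axis from 0), as mean and SD over 2 libraries, or 3 for treated NANOG-FKBP. The Tfcp2l1 sum drops to 60.8% of NT by 2 h in OCT4-FKBP, and the Prdm14 sum to 71.2% by 2 h in SOX2-FKBP.

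Described by the same rule, 12 other naive genes (Klf2, Klf4, Klf5, Esrrb, Zfp42, Nanog, Dppa3, Nr0b1, Tdh, Gbx2, Stat3 and Sall4) had 293 peaks. Of their tested peaks 10.8% were lost and 1.08% gained at 2 h of SOX2 removal, and 22.2% were lost and 4.66% gained at 24 h. After OCT4 removal 9.29% were lost at 2 h and 26.1% at 24 h, with a 24 h median of -0.38. The 8 formative or primed genes (Otx2, Fgf5, Pou3f1, Dnmt3a, Dnmt3b, Lef1, Sox3 and Sox4) had 136 peaks, of which 12.8% of those tested were lost and 14.4% gained at 24 h of SOX2 removal and 15.1% lost and 12.7% gained at 24 h of OCT4 removal. No difference between these lists was tested.

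The letters CATTGT or CTTTGT were found in the 300-base window of 39.1% of the 128 peaks and 34.9% of 184800 peaks of the series with a full window. By gene the share ran from 19.4% near Tbx3 to 51.7% near Prdm14. Of the 13 peaks lost at 2 h of SOX2 removal 9 held them (69.2%), and of the 104 without a call 35 (33.7%), beside 61.2 and 32.3% over all peaks. Of the 20 peaks lost at 2 h of OCT4 removal 8 held them (40.0%), and of the 93 without a call 36 (38.7%), beside 52.0 and 33.7% over all peaks.

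The composite TTGTNATGC was found in 2 windows (1.56%, against 1.27% of all), those of Prdm14 +32.4 kb and Nr5a2 +19.7 kb, both lost at 2 h of SOX2 removal. The octamer ATGCAAAT was found in 1 window (0.781%, against 2.63%), that of Tfcp2l1 +46.4 kb, which lies in the OCT4-affected part of the gene. That peak, named after its values were seen, went from 80.5 and 119 normalized counts to 30 and 59.6 at 2 h and 10.7 and 16.3 at 24 h of OCT4 removal (-2.89 ± 0.38, adjusted p = 1.86e-07). The nuclear receptor site TCAAGGTCA was found in 2.34% of the 128 windows against 2.27% of all, and the KLF site CCACACCC in 5.47% against 6.04%. A match of letters does not show that a factor binds there.

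For likeness, the counts of all tested peaks within 60 kb of each of 17100 protein-coding genes were summed, and the log2 ratio of the mean sum to that of NT in each of the 11 treated conditions was correlated with that of each of the 4 genes, as a description without a test. The conditions of a line share their NT libraries and the sums mix strong and weak peaks. The profiles most like Tfcp2l1 were those of Map10 and Gm20604 (both r = 0.98) and Gon7 (r = 0.97), those most like Tbx3 were Clca4a (0.98), Gm10188 (0.97) and Lemd2 (0.96), those most like Prdm14 were Plekhf2 (0.98), Gm33543 (0.97) and Cdx4 (0.96), and those most like Nr5a2 were Tmco1 and Ghrh (both 0.97) and Csnk2a1 (0.95). Among the 4 genes themselves r was 0.87 for Tbx3 and Prdm14, 0.73 for Tfcp2l1 and Tbx3 and 0.03 for Tfcp2l1 and Nr5a2.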

How the data were processed

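The authors aligned paired reads to mm10 with BWA 0.7.17-r1188, removed duplicates with Picard 2.12.0, called peaks on merged libraries and counted fragments per peak, and SAMtools 1.10 is named in the submitters' processing notes. Whether reads were shifted for the Tn5 cut is not given in the sources used here. The deposited values used were these raw fragment counts in 31 libraries, with the peak list and its summits. The other 14 of the 45 samples were not analysed here.

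The 4 genes and all gene lists were chosen with earlier results of these data known. Counts were tested with edgeR 4.0.16 in R 4.3.3 (TMM scaling, quasi-likelihood test, Benjamini-Hochberg adjustment over all peaks, threshold 0.05). The SOX2-FKBP fit held its 12 libraries and the 160432 peaks that exceeded 10 counts in at least 3 of them. The fit for OCT4-FKBP, NANOG-FKBP and the difference between lines held the 27 libraries at NT, 2, 6 and 24 h and the 166430 peaks that exceeded it in at least 7. Normalized counts come from the same fits, so levels were ordered within a line. Peaks were named by gene as the one nearest the 5' end, the 3 strongest in NT, and for each line the one with the largest called loss at 2 h and the largest called gain at 24 h, moving the same way in all replicates, with at least 50 normalized counts in the higher group. Others are said to have been named after their values were seen. Alternatives were DESeq2 1.42.0, other scalings and filters, the groups alone, other windows, each library left out, and a replicate block. Which replicates were separate cultures is not given in the sources used here, so p-values measure the spread between these libraries, which may be technical. All replicate pairs differed beyond sampling noise. Same-numbered libraries deviated together in SOX2-FKBP (15 pairs of groups, correlations 0.12 to 0.48) and OCT4-FKBP (6 pairs, 0.33 to 0.60). They were taken as paired from these correlations, though no label says so. In NANOG-FKBP they deviated together among treated times (0.5 to 0.6) but little with NT (-0.02 to 0.11), and this line was not taken as paired. The block of the fit over all lines still coded its numbers. The tests were checked on simulated counts.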

Additional observations from a re-analysis of the deposited data

Results flagged for a closer look

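In 6 values the change after OCT4 removal differed from that after SOX2 removal by the interaction test (edgeR's quasi-likelihood test, Benjamini-Hochberg adjusted p). They came from 2 of 116 tested peaks at 2 h, against 1.57% of all peaks, and 4 of 116 at 24 h, against 2.77%. These counts lie near the shares of the series. The intronic Tfcp2l1 peak at +30.4 kb differed by -2.06 ± 0.39 (SE, log2) at 2 h (adjusted p = 0.00136) and by -2.0 ± 0.44 at 24 h (adjusted p = 0.00534). The Tfcp2l1 peak at -1.3 kb differed by -1.6 ± 0.41 at 24 h (adjusted p = 0.0218) and the intronic peak at +46.4 kb by -2.25 ± 0.50 at 24 h (adjusted p = 0.00599). Without OCT4-FKBP 24 h replicate 1, which leaves that group 1 library, these Tfcp2l1 differences at 24 h were not past the threshold. The median 24 h difference of the 14 peaks from +28 to +60 kb was then -1.14, against -1.63 with all libraries.

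The intergenic Tbx3 peak at +24.4 kb went the other way, by 3.05 ± 0.73 at 2 h (adjusted p = 0.0171) and 3.06 ± 0.85 at 24 h (adjusted p = 0.0376). Its counts are low. The OCT4-FKBP libraries held 6.57 and 10.6 normalized counts in NT, 25.2 and 28.8 at 2 h and 12.2 and 21.2 at 24 h. The SOX2-FKBP libraries held 8.93 and 19.4 in NT, 4.31 and 4.73 at 2 h and 3.33 and 2.16 at 24 h, and the NANOG-FKBP libraries 36.6 and 13.3 in NT and 8.15, 0 and 2.59 at 24 h. Groups here hold 2 or 3 libraries, so no library was tested as standing apart for a single peak.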

How the results depend on the processing

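Of 286 values of named peaks, 82 passed the threshold, and 53 of them passed it under every alternative that gave a value. Over 5046 alternative values 4876 kept direction and side of the threshold, 95 passed it newly, 75 no longer passed and none reversed. The replicate block lost 0 and won 33 of these calls. It changed these counts: 22 lost at 2 h and 5 gained at 24 h in SOX2-FKBP, and 14 and 16 differences between lines at 2 and 24 h. Over all 160432 tested peaks of the SOX2-FKBP fit, it gave 15005 lost at 2 h and 21853 gained at 24 h. In NANOG-FKBP it gave 4, 4 and 6 lost at 2, 6 and 24 h and 1 gained at 24 h (1 of the lost at Nr5a2 at each time). There same-numbered treated libraries deviated together (correlations 0.5 to 0.6) but little with NT (-0.02 to 0.11). With 30 kb windows 5 and 16 were lost at 2 and 24 h in SOX2-FKBP with 1 gained, 7 and 19 in OCT4-FKBP with 3 gained, 0 at 2 h in NANOG-FKBP, and 1 and 2 differed between lines; with 100 kb windows 4 were gained in SOX2-FKBP and 7 differed at 24 h. DESeq2 gave 8 lost at 2 h and 0 gained in SOX2-FKBP, 13 lost at 2 h in OCT4-FKBP and 1 difference at 2 h. In NANOG-FKBP 2 were lost at 2 h with DESeq2 size factors or without a filter, and 0 with total counts. Total counts gave 2 gains and 45 losses against 7 and 40 in OCT4-FKBP at 24 h, where the median of all peaks moved from -0.01 to -0.14 (log2). With at least 10 counts in every library, so with fewer peaks tested, OCT4-FKBP lost 9 and 23 and gained 1, NANOG-FKBP lost 0 and 0, SOX2-FKBP gained 0 and 1 differed at 2 h. With the groups compared alone OCT4-FKBP lost 12 at 2 h and gained 3, and 9 and 7 differed. Without the 3 shallow NANOG-FKBP libraries, chosen after seeing the data, 4 and 7 differed. Leaving out each library gave 8 to 15 lost at 2 h and 22 to 29 at 24 h with 0 to 2 gained in SOX2-FKBP, 6 to 20 and 23 to 41 with 2 to 7 gained in OCT4-FKBP, 0 to 4 and 1 to 4 with 0 gained in NANOG-FKBP, and 2 to 6 and 1 to 5 differences. Apart from what is said of these constructions, the cause of the changes was not tested. With 2 libraries in most groups, the loss of a call does not show that a peak was unchanged.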
